A study of Homo sapiens with 26 samples.

Results

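The 41 interferon response genes described here were followed through 16 chromatin peak lists of HCT116 cells, among 20149 protein-coding genes in all. The set holds interferon regulatory factors, STAT2 and a range of antiviral effectors. It was chosen by the measured H3K27ac ranks in WT cells, because the promoter of IRF9 had the largest drop of all coding promoters after 1 h of Nutlin-3a, so every value of that contrast is a description and carries no test. HCT116 is a colorectal carcinoma line with wild-type p53, and Nutlin-3a blocks the binding of p53 to its inhibitor HDM2. WT cells (HCT116) received DMSO (0 h), or Nutlin-3a for 1 h or 10 h, and H3K27ac and H3K4me1 were each profiled by ChIP-seq in 2 samples per condition. The line labelled HCT116_RAD21 received DMSO (0 h) or Nutlin-3a for 1 h, and only H3K27ac was profiled, again in 2 samples per condition. By the methods of the study this line carries degron-tagged RAD21, a cohesin subunit that can be degraded by an auxin analog in controls and treated cells alike. The study describes RAD21 as degraded before these H3K27ac profiles were made, while the labels give no such treatment, so the group is called the RAD21 line.

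Type I interferons bind a cell-surface receptor whose kinases JAK1 and TYK2 phosphorylate STAT2. It joins IRF9 in the complex ISGF3, which binds interferon-stimulated response elements in the promoters of antiviral genes. In many cells a low tonic activity of this pathway keeps some target genes expressed without infection. H3K27ac marks active promoters and enhancers, and H3K4me1 marks enhancers and promoter flanks, including regions that are not acetylated.

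The lists held 31640 to 49127 H3K27ac peaks and 84492 to 92943 H3K4me1 peaks, with no read counts. Library read totals given by the study were not analysed here. In them the H3K27ac libraries of the RAD21 line and of WT at 1 h have fewer filtered reads than those of WT at 0 h and 10 h, and the part of this difference in the results was not tested. Peak names of the WT 0 h lists and of list 1 at WT 1 h lack the word input, which all other peak names carry, so the WT 10 h and 0 h lists differ in this form throughout, and a term for it rests on the WT 1 h lists, which hold 1 of each form. Peak names of list 2 of the RAD21 line at 0 h carry 2 replicate numbers. The WT comparisons at 1 h and 10 h share the 0 h lists. Of the epithelial markers, 6 of 6 (EPCAM, CDH1, KRT8, KRT18, KRT19 and CLDN4) had a promoter H3K27ac peak in every list. None of 5 immune, 2 annotated endothelial and 4 fibroblast markers had a peak in any list. The lists of a group are numbered by the labels, which do not say how the cultures were separated, so p-values measure the spread between these lists.

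Interferon-stimulated response elements were searched as GAAA, any 2 bases and GAAA again, on both strands of the 250 bases upstream of each gene's canonical start site in GRCh37. They were present in 21 of the 41 members (51.2%), against 2.85% of 19845 coding promoters of the same length. The stretches below are read 5′ to 3′ along the gene's strand, with the matching letters in capitals. They show IRF9, the first 3 matching members whose promoters were acetylated in every list (ISG15, ISG20 and IFI6) and the first 3 that were acetylated in none (IFI27, IFI44 and IFI44L), without exonic bases of coding transcripts except in ISG20, where 30 bases around the match are given. They lie at chr14:24630224-24630453 (IRF9, plus strand), chr1:948627-948876 (ISG15, plus), chr15:89182168-89182197 (ISG20, plus), chr1:27998724-27998953 (IFI6, minus), chr14:94576911-94577079 (IFI27, plus), chr1:79115266-79115515 (IFI44, plus) and chr1:79085883-79086132 (IFI44L, plus).
IRF9: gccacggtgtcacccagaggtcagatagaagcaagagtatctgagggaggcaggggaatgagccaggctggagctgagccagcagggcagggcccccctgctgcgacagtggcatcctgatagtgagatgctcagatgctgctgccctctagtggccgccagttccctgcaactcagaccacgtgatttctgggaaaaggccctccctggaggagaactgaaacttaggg
ISG15: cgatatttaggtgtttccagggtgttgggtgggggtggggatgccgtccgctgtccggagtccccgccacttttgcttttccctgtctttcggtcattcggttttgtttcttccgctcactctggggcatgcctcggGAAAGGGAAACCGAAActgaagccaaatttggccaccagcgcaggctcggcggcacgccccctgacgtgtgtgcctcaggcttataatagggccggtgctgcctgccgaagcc
ISG20: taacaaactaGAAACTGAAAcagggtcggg
IFI6: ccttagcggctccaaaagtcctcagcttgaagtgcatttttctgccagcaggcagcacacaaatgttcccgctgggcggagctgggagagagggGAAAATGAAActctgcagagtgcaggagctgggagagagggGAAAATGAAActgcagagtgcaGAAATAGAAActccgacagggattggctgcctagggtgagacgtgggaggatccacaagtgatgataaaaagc
IFI27: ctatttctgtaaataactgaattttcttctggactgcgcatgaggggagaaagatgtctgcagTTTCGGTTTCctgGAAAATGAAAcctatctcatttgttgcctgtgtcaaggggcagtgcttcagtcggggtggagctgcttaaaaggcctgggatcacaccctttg
IFI44: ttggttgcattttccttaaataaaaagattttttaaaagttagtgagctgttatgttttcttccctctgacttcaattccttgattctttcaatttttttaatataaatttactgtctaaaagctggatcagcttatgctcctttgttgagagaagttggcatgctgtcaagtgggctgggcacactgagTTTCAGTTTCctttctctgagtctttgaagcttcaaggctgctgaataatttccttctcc
IFI44L: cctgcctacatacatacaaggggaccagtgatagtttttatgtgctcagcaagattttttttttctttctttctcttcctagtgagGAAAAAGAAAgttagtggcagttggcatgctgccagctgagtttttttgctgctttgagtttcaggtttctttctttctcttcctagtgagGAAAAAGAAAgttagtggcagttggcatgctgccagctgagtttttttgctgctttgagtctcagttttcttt
The IRF9 stretch, between the last exon of RNF31 and the first exon of IRF9, has no capitals: these exact letters are not in the window. Matches stood in 14 of the 28 members acetylated in every list (50%) and in 3 of the 9 acetylated in none (33.3%), beside 2.16% and 3.97% of all coding promoters split in the same way. All 4 members acetylated in only some lists held a match. The letters were thus in members of each state. The state was taken over any annotated start site, while letters and base composition were read at the canonical one. At the canonical start sites of IFITM1 and RSAD2, among these 4, and of MX1, among the 28, no list had H3K27ac. IFITM2, with H3K27ac in 8 lists at its canonical start site, held no match. The median ratio of observed to expected CpG was 0.651 in the 28 acetylated promoters and 0.116 in the 9 others, beside 0.852 and 0.34 for all coding promoters. The median GC content was 58% and 42.8%, respectively, beside 66.8% and 54%.

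A promoter was taken as 1000 bp upstream to 200 bp downstream of any annotated start site. H3K27ac was called there in all 10 lists for 28 members (68.3%), against 57.9% of coding genes. It was called in no list for 9 members (22%), against 34.5% of coding genes. These 9 were IFI27, IFI44, IFI44L, MX2, OAS1, OAS2, TRIM22, SAMD9L and XAF1. The state split gene families: OAS3, which like OAS1 and OAS2 makes the second messenger that activates RNase L, was acetylated in every list while its neighbours were not, and the dynamin-like GTPase gene MX1 was acetylated while MX2 was not. The MX1 peak lay on upstream start sites, with its summit at −5550 to −5432 bp from the canonical one, where no list had a peak. With the canonical start site alone, IFITM1 and RSAD2 also had H3K27ac in no list and IFITM2 in 8. IFIT1, IFIT2, IFIT3 and IFIT5 and the membrane restriction factor genes IFITM2 and IFITM3 carried the mark throughout. H3K4me1 was called in all 6 WT lists for 33 members (80.5%), against 63.6% of coding genes. MX2, OAS2, SAMD9L and XAF1 had neither mark at the promoter in any list, a state found in 27.1% of coding genes.

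**Figure D1:**
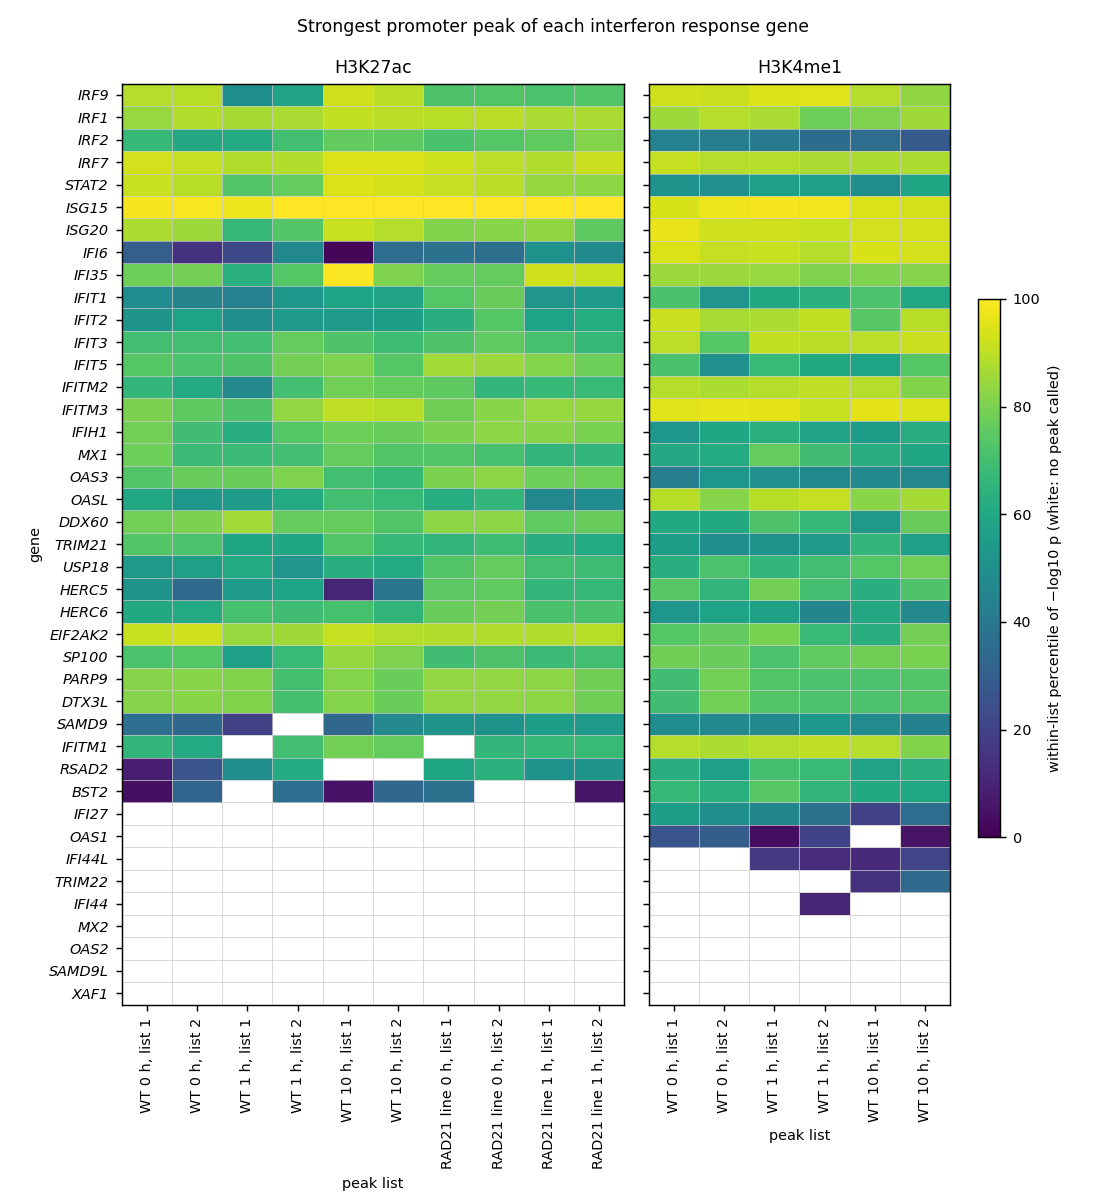
Within-list percentile of −log10 p of the strongest peak on each member's promoter (rows) in each peak list (columns), for H3K27ac (left) and H3K4me1 (right), with white where no peak was called. Of the 41 members, 28 had both marks in every list and 4 had neither in any. For ISG15 the strongest H3K27ac peak is that of an upstream start site.

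The number of members with a promoter H3K27ac peak in both lists of a group was 32 at WT 0 h, against 60.1% of coding genes, 29 at 1 h (60.6%) and 31 at 10 h (60.1%). The RAD21 line had 30 at 0 h (60.7%) and 31 at 1 h (61.9%). For H3K4me1 it was 34 (66%), 35 (66.6%) and 35 (65.3%) in untreated cells and after 1 h and 10 h. With 2 lists a group, the smallest p of a two-sided exact permutation test is 0.333, so these counts were not tested.

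IRF9 encodes the DNA-binding subunit of ISGF3. Its promoter region lies on chromosome 14 from 24628330 to 24631452 and covers the start site at 24630474. On the percentile of −log10 p among all peaks of a list, its H3K27ac peak stood at 89.0 and 89.5 at WT 0 h, 49.9 and 58.6 at 1 h, and 92.8 and 89.7 at 10 h. The same peak stood at 72.1 and 72.8 in the RAD21 line at 0 h, and at 71.8 and 72.9 at 1 h. The WT 1 h lists thus lay below all others and did not overlap them, and the RAD21 line lay between the WT 1 h and the other WT lists. Split by the form of the peak name, with 1 WT 1 h list of each, the values were 49.9 against 89.0 and 89.5 at 0 h without the word input, and 58.6 against 92.8 and 89.7 at 10 h with it. The peaks of the WT 1 h lists were also narrow, 1073 and 752 bp, against 1407 and 1259 bp at 0 h and 2974 and 2472 bp at 10 h. Percentiles among all peaks depend on how many peaks, weak ones included, a list holds.

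For tests, each list's peaks were ranked within the regions that all lists of the mark share (18757 for H3K27ac, 60476 for H3K4me1) and the ranks turned into a shared-region score, in which 1 is an SD of the scores of a list. The IRF9 scores were 0.86 and 0.91 at WT 0 h, −0.76 and −0.98 at 1 h, and 0.89 and 0.67 at 10 h. They were −0.20 and −0.26 in the RAD21 line at 0 h, and −0.22 and −0.14 at 1 h. The change in WT at 1 h, the value that chose the set, was −1.75 ± 0.127 (SE, n = 2 and 2). The next lower coding promoter regions were CREBRF at −1.68 ± 0.150 and FBXO38 at −1.58 ± 0.122. In the RAD21 line the IRF9 change was 0.04 ± 0.127 (limma adjusted p = 0.823). At 10 h the WT change was −0.10 ± 0.127, given without a test because it shares the 0 h lists with the contrast that chose the set.

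**Figure D2:**
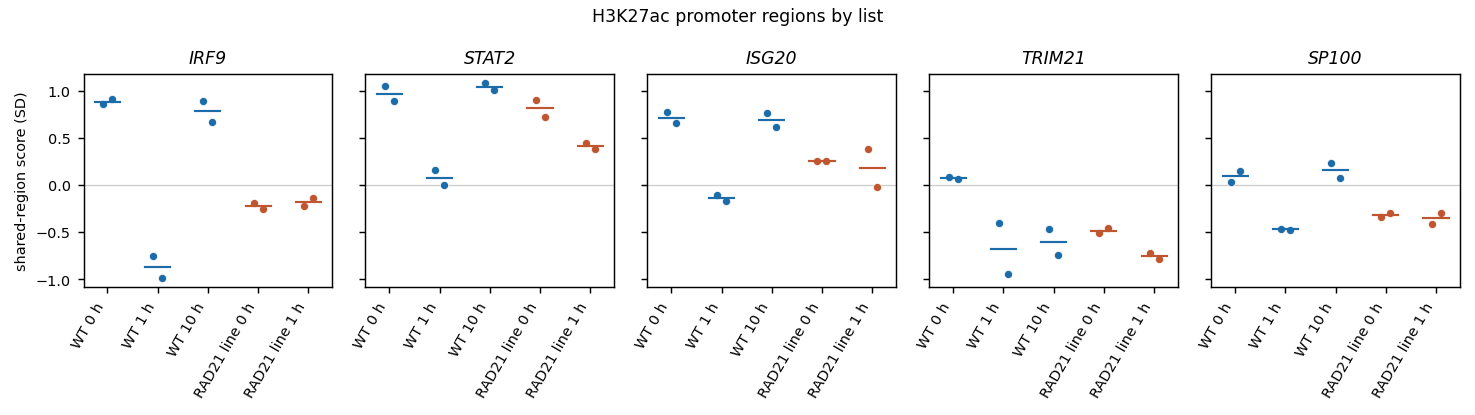
Shared-region H3K27ac score (y axis, in SD of a list's scores) of 5 promoter regions in each list (points) with the mean of 2 lists (bar), WT in blue and the RAD21 line in orange. IRF9 stands at −0.76 and −0.98 in the WT 1 h lists and at 0.67 to 0.91 in the other WT lists.

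Promoters next to IRF9 did not share its values. The 4 neighbouring regions within 25 kb of an IRF9 start site that were called in every list are given here. Their changes in WT at 1 h were 0.11 at PSME1 and 0.11 at EMC9, −0.14 at the region of PSME2 and RNF31, and 0.27 at IPO4. H3K4me1 at the IRF9 promoter stood at percentiles of 92.9 and 91.9 at 0 h, 94.7 and 95.5 at 1 h, and 88.7 and 83.5 at 10 h. The H3K4me1 change was 0.23 ± 0.166 at 1 h (limma adjusted p = 0.541) and −0.35 ± 0.166 at 10 h (adjusted p = 0.583). No change of H3K4me1 was called at IRF9 at either time.

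The members most like IRF9 over the 10 H3K27ac lists were SP100, a nuclear body protein gene (Pearson r = 0.96), ISG20, an exonuclease gene (0.95), STAT2 (0.89), IRF7, which drives interferon transcription (0.82), and EIF2AK2, which encodes the double-stranded RNA kinase PKR (0.70), out of 28 compared regions. Over all 10614 other coding promoter regions the highest values were PAIP2, FBXO38, CCNG2 and POM121 (each 0.99) and the region of DEPDC4 and SCYL2 (0.98). These correlations share their lists and the list order, and are given as a description. STAT2, the ISGF3 subunit that binds IRF9, had scores of 1.04 and 0.89 at WT 0 h, 0.15 and −0.01 at 1 h, and 1.08 and 1.01 at 10 h. ISG20 scored 0.77 and 0.66 at 0 h, −0.10 and −0.17 at 1 h, and 0.77 and 0.61 at 10 h. SP100 scored 0.03 and 0.15, then −0.47 and −0.47, then 0.23 and 0.07. In all of these the WT 1 h lists lay below the 0 h and 10 h lists, without overlap. The changes at 1 h were −0.90 ± 0.119 at STAT2, −0.85 ± 0.136 at ISG20, −0.75 ± 0.174 at TRIM21, which encodes a cytosolic antibody receptor, −0.56 ± 0.123 at SP100 and −0.50 ± 0.115 at EIF2AK2.

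IRF7 scored 1.16 and 1.02 at 0 h, 0.87 and 0.68 at 1 h, and 1.09 in both lists at 10 h, so its 1 h lists too lay below the others. Scores of IRF1 and IRF2 overlapped between the WT times. IRF1, an early activator of the pathway, stood at percentiles of 84.6 to 90.7 over the 10 lists. IRF2, its antagonist, stood at 60.3 to 81.3, and IRF7 at 88.4 to 94.7. Over the 29 member regions in the fit, 21 were lower and 8 higher in WT at 1 h, with a median change of −0.16 beside −0.0069 over all regions. Both 1 h lists lay below both 0 h lists in 9 of them, against 31.4% of all regions, and above them in 2, against 29.6%. As this contrast chose the set, nothing is read from these counts.

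In the RAD21 line at 1 h, 1 of 29 member regions rose and 3 fell (limma on shared-region scores, Benjamini-Hochberg over all 18757 regions), beside 14.4% of all regions that rose and 13.4% that fell (17% and 13.1% of 10615 coding promoter regions). The median change was −0.14, beside 0.04 over all regions. IFIT1, which encodes an RNA-binding inhibitor of translation, had scores of −0.13 and −0.04 at 0 h and of −1.33 and −1.15 at 1 h in this line. In WT it scored −0.92 and −1.04 at 0 h, −0.98 and −1.30 at 1 h, and −1.35 and −1.23 at 10 h. The 0 h lists of the RAD21 line thus stood above all the others. IFIT1 fell by 1.16 ± 0.183 in the RAD21 line (adjusted p = 0.000601).

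OASL, an oligoadenylate synthetase-like protein gene, scored −0.72 and −0.62 in the RAD21 line at 0 h, and −1.64 and −1.52 at 1 h. The 6 WT lists lay between −0.83 and −0.45. The RAD21 line at 1 h was thus the only group below that range. OASL fell by 0.91 ± 0.171 (limma adjusted p = 0.00185). STAT2 scored 0.90 and 0.72, then 0.44 and 0.38, and fell by 0.40 ± 0.119 (limma adjusted p = 0.0230). ISG15, a ubiquitin-like modifier gene, scored 0.06 and 0.19, then 0.55 and 0.49, and rose by 0.39 ± 0.112 (limma adjusted p = 0.0194). ISG15's WT scores were 0.22 and 0.23 at 0 h, 0.21 and 0.35 at 1 h, and 0.48 and 0.52 at 10 h. IFIT1 and OASL kept their calls without each of the 10 lists in turn. The ISG15 and STAT2 calls were lost without list 1 of the RAD21 line at 0 h (adjusted p = 0.133 and 0.172), without list 1 at 1 h (0.119 and 0.0830) and without list 2 at 1 h (0.0781 and 0.136). The calls at IFIT1, OASL, STAT2 and ISG15 were all kept without list 2 of the RAD21 line at 0 h. More member regions were called without either WT list at 1 h, and so were more of all regions. When peaks were ranked by fold enrichment in place of −log10 p, limma called 0 regions in the whole table, where 2667 had an unadjusted p under 0.05.

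**Figure D3:**
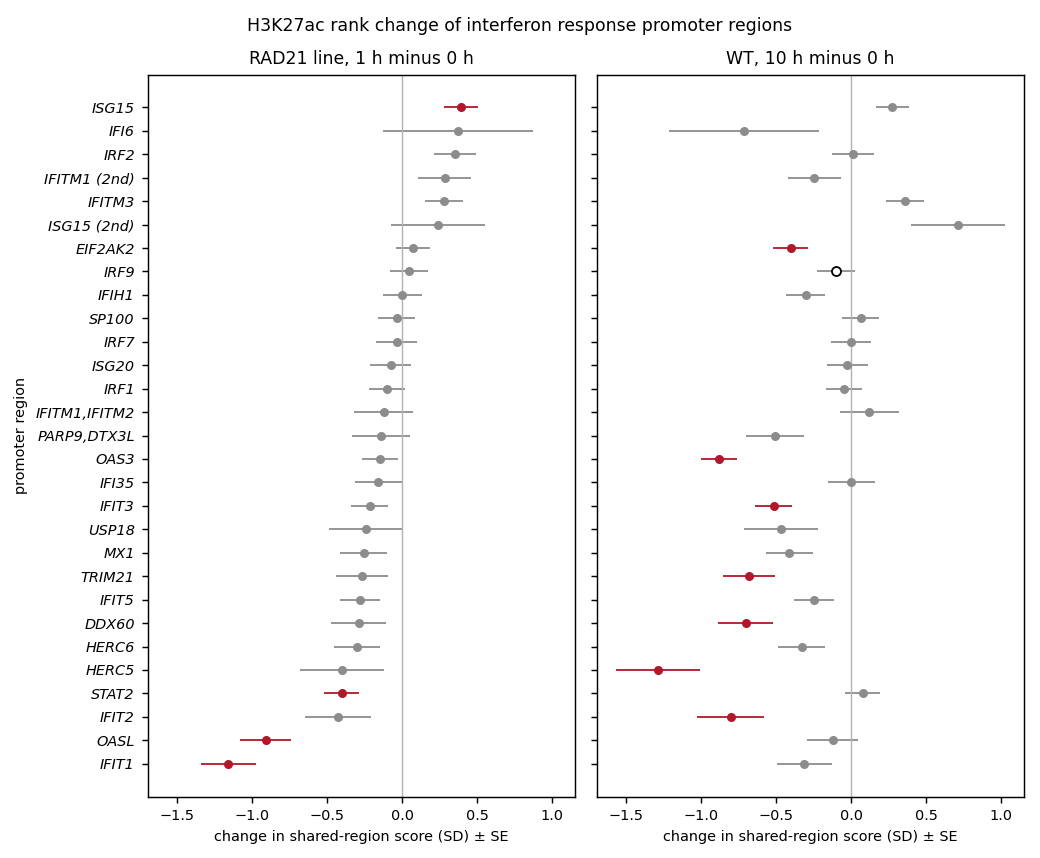
Change in shared-region H3K27ac score (x axis, ± SE) of 29 promoter regions of the set in the RAD21 line at 1 h (left) and in WT at 10 h (right), each against 0 h, with called regions in red and IRF9 at 10 h, which was not tested, as an open circle. IFIT1 and OASL lie lowest in the RAD21 line, and HERC5 lies lowest in WT at 10 h.

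In WT at 10 h, 7 of 28 tested member regions fell and 0 rose, beside 8.56% of all regions that fell and 9.7% that rose, or 10.4% and 5.42% of coding promoter regions (limma, Benjamini-Hochberg adjustment; 13 member regions had an unadjusted p under 0.05). Ranking by fold enrichment gave 5 lower and 1 higher, beside 1796 lower and 1892 higher of all 18757 regions. The calls at EIF2AK2 and DDX60 were lost (limma adjusted p = 0.127 and 0.0629). With only the lists compared, 10 were lower and 3 higher of 30, beside 3564 lower and 3512 higher of all 21689 regions. OAS3 scored 0.08 and 0.28 at 0 h, 0.32 and 0.21 at 1 h, and −0.67 and −0.75 at 10 h. Its 10 h lists lay below every other list, those of the RAD21 line at 0.09 to 0.29 included. OAS3 fell by 0.88 ± 0.119 (limma adjusted p = 0.000717), and was the only member called when the form of the peak name was a term in the fit (a change of −0.78, adjusted p = 0.0220). With this term, 437 of all 18757 regions were called lower and 386 higher, against 1606 and 1820 without it.

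HERC5, the ligase gene for ISG15, scored −0.79 and −1.48 at 0 h, −0.56 and −1.02 at 1 h, and −2.81 and −2.04 at 10 h. In the RAD21 lists its scores stood at −0.06 and −0.10 at 0 h, then −0.52 and −0.44 at 1 h, above all WT lists. HERC5 fell by 1.29 ± 0.279 in WT at 10 h (limma adjusted p = 0.00870). DDX60, a helicase gene, scored 0.33 and 0.43 at 0 h, 0.74 and −0.01 at 1 h, and −0.25 and −0.39 at 10 h, a fall of 0.71 ± 0.185 (limma adjusted p = 0.0207). IFIT2 scored −0.80 and −0.48, then −0.77 and −1.26, then −1.50 and −1.38, and fell by 0.80 ± 0.221 (limma adjusted p = 0.0252). Both of its 10 h lists lay below its 0 h and 1 h lists. IFIT3 scored −0.05 and −0.02, then 0.04 and −0.000601, then −0.49 and −0.62, and fell by 0.52 ± 0.125 (limma adjusted p = 0.0145). TRIM21 scored 0.09 and 0.06, then −0.41 and −0.95, then −0.47 and −0.74, and fell by 0.68 ± 0.174 (limma adjusted p = 0.0187). EIF2AK2 scored 1.03 and 1.14, then 0.66 and 0.51, then 0.75 and 0.61, and fell by 0.40 ± 0.115 (limma adjusted p = 0.0283). The 1 h and 10 h lists thus overlapped at TRIM21 and EIF2AK2, while the 10 h lists lay below all other WT lists at OAS3, HERC5, DDX60, IFIT2 and IFIT3.

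**Figure D4:**
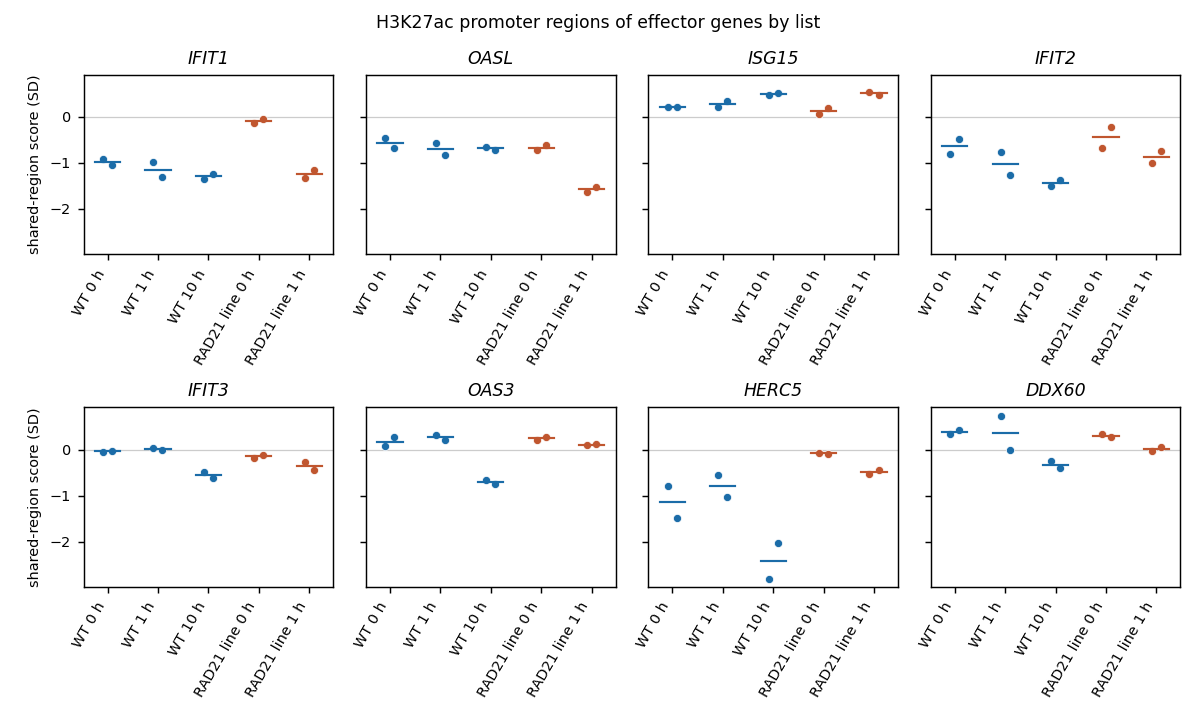
Shared-region H3K27ac score (y axis, in SD of a list's scores) of 8 effector promoters in each list (points) with the mean of 2 lists (bar), WT in blue and the RAD21 line in orange. IFIT1 is highest in the RAD21 line at 0 h, OASL lowest in the RAD21 line at 1 h, and OAS3, HERC5, IFIT2, IFIT3 and DDX60 lowest in WT at 10 h.

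With the form of the peak name as a term, the changes of the other 6 were −0.83 at HERC5 (limma adjusted p = 0.284), −0.32 at IFIT2 (0.658), −0.48 at IFIT3 (0.210), −0.14 at TRIM21 (0.806), −0.25 at EIF2AK2 (0.424) and 0.05 at DDX60 (0.925). The number of member calls fell without a list of WT at 0 h or 10 h, and rose without a list at 1 h. The number of calls over all regions moved in the same ways. These runs leave 1 list in a group, so their counts are not read. On the percentile among all peaks of a list, both 10 h lists lay below both 0 h lists at 3 of the 7, OAS3, EIF2AK2 and DDX60. At IFIT2, IFIT3, TRIM21 and HERC5 the lists overlapped on that scale. The scale depends on the number of peaks in a list, which was 49127 and 46638 at 10 h and 33976 and 32739 at 0 h. IFIT2, for example, stood at percentiles of 51.6 and 58.0 at 0 h and 54.4 and 55.6 at 10 h.

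RSAD2, which encodes the antiviral enzyme viperin, was the only member with an H3K27ac promoter peak in both lists of a group and in neither list of another group of its line. Of all merged H3K27ac regions, 1.9% were called in both WT lists at 0 h and in neither at 10 h. The share of coding genes with such a pattern was not counted. The RSAD2 region on chromosome 2 from 7005442 to 7006440 covers start sites shared with CMPK2, upstream of the canonical RSAD2 start site at 7017908. No list had H3K27ac at that canonical site, so the peak cannot be assigned to RSAD2 rather than CMPK2. The peak stood at percentiles of 8.5 and 26.4 at WT 0 h and 49.0 and 61.4 at 1 h, and was absent from both lists at 10 h. In the RAD21 line it stood at 59.1 and 64.0 at 0 h, and at 50.9 and 51.6 at 1 h. H3K4me1 at these start sites was called in every list, at percentiles of 56.3 to 70.4. SAMD9, BST2 and IFITM1 were also called in only some lists. SAMD9, a restriction factor gene, lacked a peak in list 2 at WT 1 h only, and stood at 19.5 to 55.6 elsewhere. BST2, which encodes the virion-retaining protein tetherin, lacked a peak in list 1 at WT 1 h, list 2 of the RAD21 line at 0 h and list 1 at 1 h, and stood at 37.7 at most. IFITM1 lacked a peak in list 1 at WT 1 h and in list 1 of the RAD21 line at 0 h.

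The remaining acetylated members are given by their percentiles over the 10 H3K27ac lists. ISG15 stood at 74.7 to 87.7 at its canonical start site, and IFI6, which encodes an endoplasmic reticulum protein that blocks flavivirus replication, was the weakest of those called in every list at 1.2 to 50.9. H3K4me1 at IFI6 stood at 89.0 to 94.2, so a weak acetylation peak lay in a strong H3K4me1 region. IFITM3 stood at 72.3 to 90.5, IFIT5 at 71.6 to 86.1 and MX1 at 65.7 to 77.7. IFIH1, which encodes the double-stranded RNA sensor MDA5, stood at 63.1 to 83.2, and USP18, which removes ISG15 from proteins and damps receptor signalling, at 52.1 to 76.5. PARP9 and DTX3L, partners in an ADP-ribosylating ligase complex, shared a peak at 70.7 to 83.9, and HERC6 stood at 60.8 to 79.1. None of these regions was called at WT 10 h or in the RAD21 line at 1 h, apart from ISG15 in the latter.

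Between the lines, the 4 lists of the RAD21 line lay above all 6 WT lists on the shared-region score at 1 of 29 member regions, HERC5, against 3.92% of all regions. They lay below them at 1, the region of IFI35 and RPL27, against 4.58%. On the same score, the RAD21 line at IRF9, ISG20 and SP100 lay between the WT 1 h lists and the WT 0 h and 10 h lists at both times. The lines also differ in the form of their peak names, and levels were not tested between them.

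Several regions hold more than the member. A start site of ISG15 upstream of the canonical one at 948877, lies in a region shared with HES4 on chromosome 1 from 931533 to 943114. That region stood at percentiles of 97.5 to 100.0 and was not called in either test, and the ISG15 scores given above are those of the canonical site. IFITM1 and IFITM2 share the region on chromosome 11 from 307104 to 309555, PARP9 and DTX3L share the promoter on chromosome 3 from 122282493 to 122284316, IFIH1 shares its region with GCA, and IFIT5 with LIPA. The region of IFI35 on chromosome 17 from 41149524 to 41159834 also holds the promoter of the ribosomal protein gene RPL27. IFI35 percentiles of 99.4 in list 1 at WT 10 h and of 92.8 and 91.6 in both 1 h lists of the RAD21 line belong to peaks that span both genes.

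H3K4me1 changed at 1 member region in WT. The region of ISG15 and AGRN, on chromosome 1 from 947409 to 962158, scored 2.67 and 2.77 at 0 h, 2.00 and 1.97 at 1 h, and 2.32 and 2.47 at 10 h. Its 1 h lists lay below the others, and it fell by 0.73 ± 0.149 at 1 h (limma adjusted p = 0.0406). The score takes the strongest peak of the whole region, so the fall cannot be assigned to the ISG15 promoter. At the canonical ISG15 start site the H3K4me1 peak stood higher at 1 h on the percentile among all peaks of a list. It stood at 92.4 and 90.3 at 0 h, 98.5 and 98.2 at 1 h, and 91.6 and 90.1 at 10 h. Among 35 member regions this was 1 call, beside 0.304% of all 60476 regions that fell and 0.291% that rose. The call was lost without any of the 6 lists in turn, with adjusted p from 0.0603 to 0.192. At 10 h, 0 of 35 member regions were called, beside 0.0231% of all regions that fell and 0.615% that rose (limma, Benjamini-Hochberg adjustment; 2 member regions had an unadjusted p under 0.05).

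In all, 5 members (12.2%) had H3K4me1 in at least 1 list and H3K27ac in none. Among coding genes, 34.5% had H3K27ac in no list, and these include the 27.1% with neither mark in any list. IFI27, a mitochondrial protein gene, was called in all 6 lists, at percentiles of 56.1 and 49.6 at 0 h, 46.0 and 37.8 at 1 h, and 19.6 and 35.8 at 10 h. Its shared-region change was −0.47 ± 0.299 at 1 h (limma adjusted p = 0.475) and −0.77 ± 0.299 at 10 h (adjusted p = 0.446). IFI44L, a gene used as a marker of interferon exposure, had no peak at 0 h, peaks at percentiles of 16.6 and 12.7 at 1 h, and peaks at 12.4 and 21.0 at 10 h. TRIM22, a ubiquitin ligase gene, had no peak at 0 h or 1 h and peaks at 14.8 and 34.4 at 10 h. IFI44L and TRIM22 were thus the members that gained a H3K4me1 promoter peak in both lists of a group. Of all merged H3K4me1 regions, 3.3% were gained in this way at 1 h and 2.63% at 10 h. The share of coding promoters with this pattern was not counted. Neither gene gained a peak when presence needed a −log10 q of at least 5. OAS1 was called at 26.4 and 29.6 at 0 h, 3.6 and 20.0 at 1 h, and in list 2 alone, at 5.1, at 10 h. IFI44 was called only in list 2 at 1 h, at 10.7. All of these peaks at IFI44L, TRIM22, OAS1 and IFI44 were among the weaker ones of their lists.

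**Figure D5:**
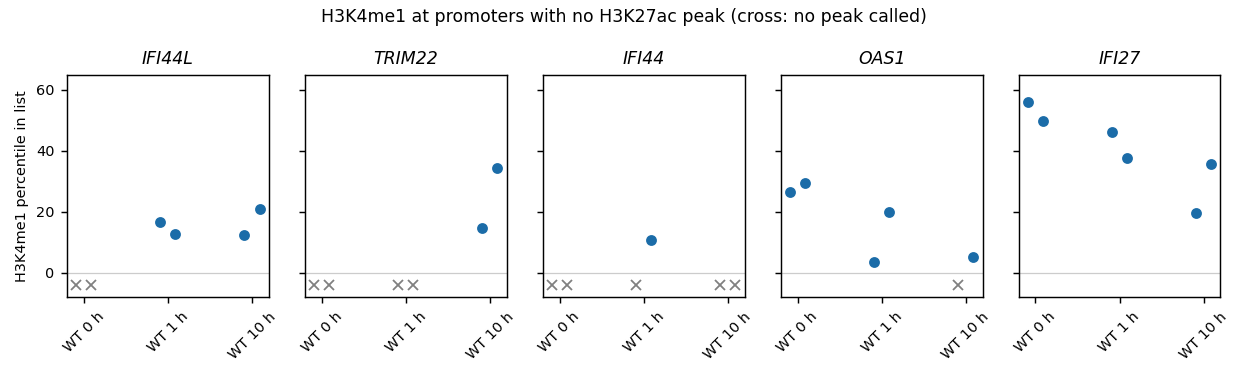
Within-list percentile of −log10 p of the H3K4me1 promoter peak (y axis) in each WT list (points; crosses mark lists without a peak) for the 5 members with H3K4me1 but no H3K27ac peak. IFI44L has peaks at 1 h and 10 h and TRIM22 at 10 h, and IFI27 has a peak in all 6 lists.

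Within 25 kb of the members' start sites lay 149 H3K27ac regions, of which 53 were called in every list (35.6%, against 21.4% of all regions), and 143 H3K4me1 regions, of which 82 were called in every list (57.3%, against 54.8%). A member promoter was overlapped by 34 of the 149 and 41 of the 143. The share in windows around all coding start sites was not counted, so these differences are not read as a trait of the set. IRF9 had 21 H3K27ac regions in this window, IRF7 19 and ISG15 14. IFI44, IFI44L, MX2, OAS1, SAMD9L and XAF1 had none. Regions called in both lists of a condition and in neither list at 0 h numbered 3 in WT at 1 h (1.51% of all regions) and 21 at 10 h (11.4%), and regions with the opposite pattern 3 (1.32%) and 4 (1.9%). The RAD21 line had 4 (4.6%) and 2 (2.87%). For H3K4me1, 1 h gave 7 (3.3%) and 1 (1.75%), and 10 h gave 4 (2.63%) and 3 (2.28%). Of the 21 regions at WT 10 h, 6 lay near IRF7, 4 near ISG15 and 3 near ISG20. The ISG20 region 4526 bp from a start site stood at percentiles of 43.9 and 42.5 at 10 h and was in no other WT list. A region 5435 bp from an IRF9 start site was called in both RAD21 line lists at 0 h, at percentiles of 8.9 and 50.1, and in no other list.

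Other genes of the pathway were counted on 2 lists. Of 51 further interferon-stimulated genes, 38 had a promoter H3K27ac peak in all lists and 9 in none. Of 24 receptor, kinase and sensor genes, 22 had it in all lists and 1 in none. Beside these, 57.9% of all coding genes had it in all lists and 34.5% in none. In the RAD21 line at 1 h, 9 of 39 regions of the first list rose and 4 fell, with a median change of 0.11, and 6 of 23 regions of the second rose and 2 fell, with a median of −0.02, beside the 14.4% and 13.4% of all regions given above. The smallest p-values were those of a promoter region of SP140L, a nuclear body protein gene, which fell by 0.66 ± 0.118 (limma adjusted p = 0.00131), PIAS1, a SUMO ligase gene, which rose by 0.68 ± 0.137 (0.00300), and LAP3, an aminopeptidase gene, which fell by 0.46 ± 0.106 (0.00605). Another SP140L promoter region was not called in this contrast (a change of −0.27 ± 0.122, limma adjusted p = 0.115). In WT at 10 h, 0 of 39 regions of the first list rose and 6 fell, and 0 of 23 of the second rose and 1 fell, beside 9.7% of all regions that rose and 8.56% that fell. For H3K4me1, 1 of 43 regions of the first list fell at 1 h and 0 at 10 h, and 1 of 28 of the second fell at each time, beside 0.304% and 0.0231% of all regions that fell. The latter was PIAS1, which fell by 1.11 ± 0.167 at 1 h (limma adjusted p = 0.00911) and by 0.79 ± 0.167 at 10 h (0.0424), and the former PML, which organizes nuclear bodies and fell by 0.72 ± 0.153 at 1 h (0.0475).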

How the data were processed

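Per the labels and the study's methods, reads were trimmed (Trim Galore 0.6.6), aligned to GRCh37 (Bowtie2 2.3.2), filtered with SAMtools, and called per sample against input by MACS2 2.2.7.1, with narrow peaks called for H3K27ac and broad peaks for H3K4me1. The deposited lists hold a fold enrichment (a linear ratio), −log10 p and −log10 q (q-values) for each peak. The 10 input libraries were not analysed here. The files hold no read counts, and library read totals given by the study were not analysed here, so no precision from depth is stated.

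Peaks of a mark that overlap or touch were merged over its lists (87570 H3K27ac and 110269 H3K4me1 regions). Start sites came from GENCODE release 44 basic transcripts mapped to GRCh37. A region's strongest −log10 p was ranked within each list, over regions called in every list of the mark, and converted to normal scores. These were fitted in limma 3.58.1 (R 4.3.3; trended eBayes), with 1 fit per mark and 1 coefficient per group, and p-values were adjusted by the Benjamini-Hochberg method over all regions. Adjusted p under 0.05 was a call. The study's read-based test could not be used on peak lists. On simulated scores with 200 regions changed by 1 on the score, 79.5% were recovered in the RAD21 line contrast and 79% in WT at 10 h, each over 18757 regions, and 44% for H3K4me1 at 1 h over 60476, with 6.47%, 10.2% and 7.37% of calls false. The simulated noise was independent, with the spread of the fit, and held no difference in peak name form or depth. These shares thus describe the fit under that setting and not the false calls in these lists. At most 1 peak of a list had the same ends in the other list of its group, so none was treated as a duplicate.

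The members, the other gene lists and the tests were chosen with earlier results of these data known. Named with values in every list were IRF9, the members called in a test, and those whose peak was in both lists of 1 group and neither of another. Members without a peak were named together, and the rest given by ranges. Of other lists, the smallest p-values in the RAD21 line and for H3K4me1 were named. Sequences were read from GRCh37. Ranking by fold enrichment, other filters, windows and overlaps, a term for the peak name form, a replicate block and leaving out each list were tried.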

Additional observations from a re-analysis of the deposited data

Results flagged for a closer look

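At 7 promoters the H3K27ac percentile of both WT lists at 1 h moved one way from both 0 h lists while both RAD21 line lists moved the other way. The share of all promoters with this pattern was not counted, so nothing is read from the number. The difference between the lines was not tested at any of them, and the WT part of each value belongs to the contrast that chose the set. On the shared-region score the WT 1 h and 0 h lists overlapped at HERC5, HERC6 and OAS3, and did not at IFIT3 and EIF2AK2. RSAD2 was not in that fit. The mean WT change minus the mean RAD21 line change, in percentile points, was 48.09 at RSAD2 (37.8 in WT and −10.3 in the RAD21 line), 21.73 at HERC5, 15.8 at HERC6, 8.79 at IFIT3 and 7.65 at OAS3, all higher in WT at 1 h and lower in the RAD21 line. It was −25.62 at IFI35, where the RAD21 line peaks at 1 h span the promoter of RPL27 (its shared-region change there was −0.16, so the lines did not move in opposite ways on that score), and −7.37 at EIF2AK2.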

How the results depend on the processing

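The numbers of member promoters with a peak in both lists of a group stayed within 1.5 times under every alternative run. With the canonical start site alone, chosen after seeing the data, they were 26 to 29 for H3K27ac and 32 to 34 for H3K4me1. Leaving out 1 list at a time gave 31 (RAD21 line, 0 h), 31 to 32 (RAD21 line, 1 h), 32, 30 to 31 and 31 (WT H3K27ac in untreated cells and after 1 h and 10 h), and 34, 35 to 36 and 35 to 36 (H3K4me1).

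Counts of called member regions depended on the setting. In the RAD21 line at 1 h, 4 regions were called, 0 when ranked by fold enrichment, 7 with peak name form as a term and 8 with only its own lists, and 2 to 7 on leaving out 1 list. In WT at 10 h, 7 were called, 1 with peak name form as a term, 13 with only the lists compared (3 higher), 6 when ranked by fold enrichment (1 higher), and 1 to 15 on leaving out 1 list. The change at DDX60 reversed with peak name form as a term (0.0462). For H3K4me1 at 1 h the count of 1 became 0 when ranked by fold enrichment, with only the lists compared, with regions missing from some lists included, with a −log10 q of at least 5 and on leaving out any list. At 10 h it was 0 throughout. The cause of these differences was not tested.

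Regions gained near members, 3, 21, 4, 7 and 4 in WT at 1 h, WT at 10 h, the RAD21 line, and H3K4me1 at 1 h and 10 h, became 1, 3, 1, 0 and 0 when presence needed a −log10 q of at least 5, and those lost became 0 in all 5. Within 10 kb, WT gained 10 at 10 h and H3K4me1 gained 2 at 1 h, and 1, 2 and 1 were lost in WT at 1 h, WT at 10 h and the RAD21 line. Leaving out 1 list gave 3 to 21, 21 to 38, 5 to 11, 10 to 12 and 6 to 8 gained, and 3 to 4, 4 to 5, 4 to 16, 3 to 6 and 5 to 13 lost, as fewer lists had to agree.

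Replicate numbers did not pair the lists: the correlation of same-numbered deviations was −0.050 to 0.045 over 10 pairs of H3K27ac groups and at most 0.0074 for H3K4me1. With the replicate block, 4 regions were called in the RAD21 line and 7 in WT at 10 h.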
